A study of Homo sapiens with 20 samples.

Results

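The clustered protocadherin genes were examined in 6 human lung adenocarcinoma cell lines before and after decitabine (DAC), an inhibitor of DNA methyltransferases. Members were chosen by gene symbol, as rows whose symbol starts with PCDHA, PCDHB, PCDHGA, PCDHGB or PCDHGC and goes on with a number or with C and a number. The rule gave 56 of the 36076 rows of the expression table, of which 15 belong to the alpha cluster, 18 to the beta cluster and 23 to the gamma cluster. They include 3 rows annotated as pseudogenes, PCDHB17P, PCDHB18P and PCDHGB8P. The mRNA-seq data comprised A549, CL1-0, CL1-5, PC9, H1299 and H1792, each as 1 Mock library (PBS) and 1 DAC library (100 nM for 72 h, then 3 drug-free days). CL1-5 is a subline of CL1-0, so these lines are related. Omni-ATAC-seq, an assay of open chromatin, was available for Mock and DAC cells of A549, CL1-5, PC9 and H1299. No library had a replicate within its line and treatment, so that cell lines are the replicates of the comparison between DAC and Mock.

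Clustered protocadherins are cadherin-like cell surface proteins that bind to themselves between neighbouring cells and are best known from neurons, where each cell uses its own combination of isoforms. Every alpha or gamma isoform has its own promoter and its own large first exon, which is spliced to constant exons shared by the cluster, whereas beta genes consist of a single large exon without shared constant exons. Most of the promoters carry a conserved element with a CGCT core that is bound by CTCF together with cohesin, and DNA methylation of these promoters is known to accompany silence of the isoform. The C-type genes (PCDHAC1, PCDHAC2, PCDHGC3, PCDHGC4 and PCDHGC5) stand at the end of the alpha and gamma arrays and are regulated apart from the others.

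The members lie on chromosome 5 of GRCh37, all on the plus strand, with alpha at 140165721 to 140391932, beta at 140430959 to 140628933 and gamma at 140710081 to 140892544. The stretches of 40 bases around the CGCT nearest the usual position were read from the GRCh37 genome, 5′ to 3′ on the plus strand, for members of each family whose values are described. That CGCT was picked by position alone and need not be the conserved element. PCDHGB5 has CGCT at -68, -41 and -11 bases from its start, and the one at -41 is shown. The one at -68 reads CCGCTG, as the PCDHGB1 stretch does. Which is the conserved element was not tested. Capitals mark CGCT.
PCDHA4 (chr5:140186562-140186601): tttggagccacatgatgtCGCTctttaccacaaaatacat
PCDHA6 (chr5:140207480-140207519): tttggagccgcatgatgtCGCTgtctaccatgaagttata
PCDHAC1 (chr5:140305803-140305842): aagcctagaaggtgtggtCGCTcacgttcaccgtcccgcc
PCDHB2 (chr5:140474127-140474166): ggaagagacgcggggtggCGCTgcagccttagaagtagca
PCDHB5 (chr5:140514759-140514798): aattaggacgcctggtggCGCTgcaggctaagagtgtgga
PCDHB12 (chr5:140588213-140588252): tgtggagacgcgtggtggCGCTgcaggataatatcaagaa
PCDHGA2 (chr5:140718268-140718307): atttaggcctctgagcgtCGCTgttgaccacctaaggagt
PCDHGA3 (chr5:140723332-140723371): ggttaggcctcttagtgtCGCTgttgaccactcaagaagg
PCDHGB1 (chr5:140729590-140729629): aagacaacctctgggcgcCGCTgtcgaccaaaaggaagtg
PCDHGC3 (chr5:140855445-140855484): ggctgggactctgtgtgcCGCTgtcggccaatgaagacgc
PCDHGB5 (chr5:140777455-140777494): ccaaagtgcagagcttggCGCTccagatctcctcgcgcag

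The letters beside the core differed between the families. GGCGCTG stood in 14 of the 18 beta windows and in no alpha or gamma window on the gene strand, against 7.27% of the 18465 windows of protein-coding genes (windows from 250 bases before the annotated start to 50 bases from it on, 300 bases in all). GTCGCTG was found in 7 of 15 alpha and 6 of 23 gamma windows and in 0 of 18 beta windows, against 1.94% of all windows. CCGCTG was found in 13 of 23 gamma windows, against 13.5% of all. With both strands searched these shares of all windows were 13.5%, 3.87% and 25.5%, and the member counts were 17 for GGCGCTG, of which 3 were gamma, and 16 for CCGCTG. All 3 strings contain CGCT and were picked after the windows had been viewed. CGCT itself, on the gene strand, was present in 53 of 56 member windows against 62.1% of all, and with all its letters inside the stretch from 100 to 25 bases before the start in 41 of 56 against 25.8% of all. On both strands CGCT was in 53 member windows and in 79% of all windows. PCDHA11, PCDHGC5 and PCDHGB8P held no CGCT in this window, whose place depends on the annotated start. Member windows held few CpG sites, the positions that DNA methylation uses, with a median of 7 (0 to 27), compared with a median of 19 over all windows. PCDHAC1 had the highest number, 27 CpG sites, and PCDHGC3 had 19.

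The 250 bases before the start are shown for PCDHAC1, whose promoter lay in an ATAC peak of all 8 libraries, and for PCDHGA3, whose promoter had a peak in the H1299 libraries alone. Capitals again mark CGCT.
PCDHAC1 (chr5:140305634-140305883): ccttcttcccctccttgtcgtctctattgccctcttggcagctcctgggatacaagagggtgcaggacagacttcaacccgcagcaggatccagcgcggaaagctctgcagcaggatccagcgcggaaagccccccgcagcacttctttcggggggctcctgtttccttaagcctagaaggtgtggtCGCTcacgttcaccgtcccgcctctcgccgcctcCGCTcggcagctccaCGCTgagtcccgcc
PCDHGA3 (chr5:140723146-140723395): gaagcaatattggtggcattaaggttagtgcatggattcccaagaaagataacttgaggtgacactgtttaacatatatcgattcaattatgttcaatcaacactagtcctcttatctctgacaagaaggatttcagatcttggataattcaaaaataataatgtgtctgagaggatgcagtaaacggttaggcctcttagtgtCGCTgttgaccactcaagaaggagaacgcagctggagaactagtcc
PCDHAC1 held 27 CpG sites in its window of 300 bases and PCDHGA3 held 4.

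The depth was 22234485 to 25303899 reads in 10 mRNA libraries and 52634234 and 59735913 in H1299. Low read numbers in H1299 were mostly even (81.9% and 85.5% of values from 1 to 20 reads, against 39.2% to 41.5% elsewhere), so counting intervals for H1299 were computed from its reads divided by 2. The epithelial markers summed to 0.986 FPKM in CL1-0 Mock against 112 to 3590 in the other lines, and of the lung markers NKX2-1, SFTPB, SFTPC and NAPSA were at most 0.417 FPKM in every library. FOXA2, the remaining gene of that list, was at 17.3 FPKM in A549 Mock, 10.8 in CL1-5 Mock and at most 0.976 in the other Mock libraries. Fibroblast markers summed to 100 FPKM in H1792 Mock and 0.161 to 5.31 in the other Mock libraries, and neuronal markers to 4.89 to 41.7. Leukocyte markers stood at 0.183 to 4.23 in Mock and 0.325 to 7.52 after DAC, and the highest sums, in A549, were mostly CD14 (4.23 and 7.38). Mesenchymal markers ranged from 11.1 to 616 in Mock.

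The labels of the ATAC libraries of CL1-5 and PC9 went against the mRNA. Of 106 genes with at least 5 FPKM in PC9 Mock and at most 3 reads in CL1-5 Mock, 84% carried a peak at the promoter in Mock under the label CL1-5, and 23.6% under the label PC9. Of 84 genes with the opposite pattern, 28.6% carried one under the label CL1-5 and 59.5% under the label PC9. The 4 libraries keep the names on their labels below, and no result on either line is drawn from them. Among the members, PCDHA6, PCDHA13, PCDHB5 and PCDHGA7 had peaks in both libraries labelled PC9, although all 4 were at 0 FPKM in PC9 Mock and at 0.386 to 3.45 FPKM in CL1-5 Mock.

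Reads could be assigned to isoforms only in part. The gene length implied by each FPKM lay within 5% of the full exon length, constant exons included, for 14 of 15 alpha and 23 of 23 gamma members, and 14 of 18 beta members. Exons shared with other members made up a median of 46.6% of the exon bases of alpha genes (2869 bases) and 43.8% of those of gamma genes (2177 bases), and none in beta. PCDHAC2 had 0 reads in CL1-0 Mock while PCDHAC1 had 84, and PCDHA1 had 0 in PC9 Mock while PCDHAC2 had 91. Reads of the constant exons were thus not counted for every member, while the constant exons stayed in the length, so alpha and gamma FPKM values are low relative to beta values, and levels are compared between clusters only with this reservation. Near-identical paralogues add a second uncertainty, since a median of 5.56% of the 100-base stretches of a beta gene occur elsewhere in the members' exons, up to 25.6% for PCDHB8 and 17.7% for PCDHB10. In gamma the median was 0.674%, and PCDHGB5 had the highest share, 8.65%.

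Mock cells held little clustered protocadherin mRNA except in H1299. The summed FPKM of the 56 members was 116 in H1299 Mock, against 21 in CL1-5, 15.1 in CL1-0, 12.9 in H1792, 10.7 in A549 and 5.03 in PC9. The median member stood at 0.592 FPKM in H1299, 0.0559 to 0.116 in A549, CL1-0, CL1-5 and H1792, and 0.0107 in PC9. In these bulk samples fewer expressing cells and less RNA per cell cannot be told apart.

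A member was counted as undetected at 3 reads or fewer. By this floor 42 of 56 members were undetected in PC9 Mock (75%), where 24.8% of the 18465 protein-coding genes were. A549 and H1792 each had 18 undetected members (32.1%), against 24% and 24.9% of genes. The other lines had fewer, with 8 in CL1-0 (background 24.8%), 6 in CL1-5 (22.2%) and 1 in H1299 (20.2%). In H1299 the floor was set on its mostly even reads without division, so its numbers are not directly comparable with those of the other lines. In PC9 the silence was spread over the clusters, with 3 of 15 alpha, 5 of 18 beta and 6 of 23 gamma members detected. Detection at a few reads is not a high level, since only 1 to 5 members reached 1 FPKM in Mock libraries other than H1299, where 24 did.

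**Figure D1:**
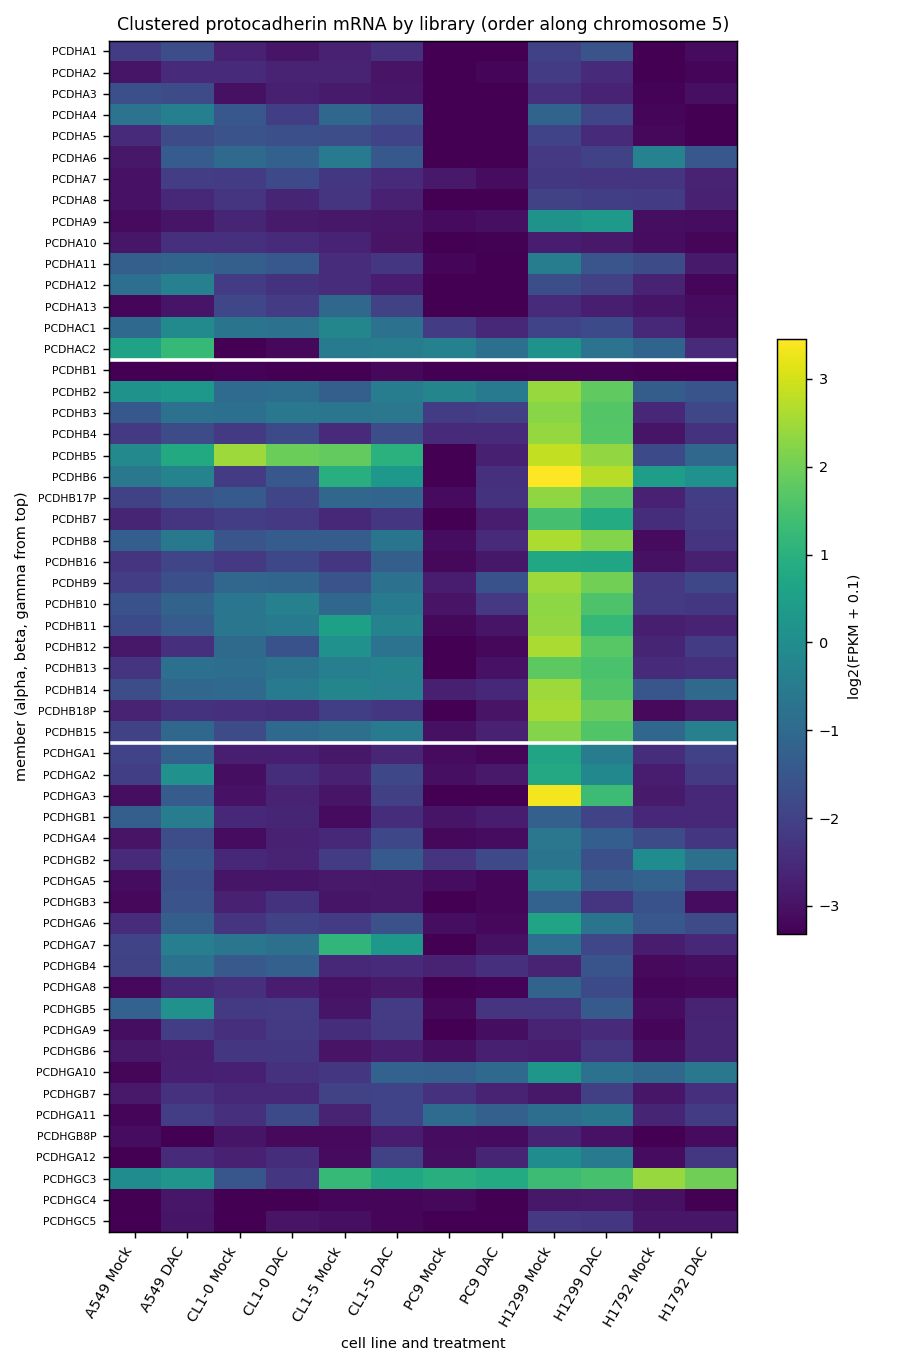
Level of each of the 56 members (rows, in chromosomal order, with white lines between the clusters) in the 12 mRNA libraries (columns), as log2(FPKM + 0.1). H1299 stands out by a beta block in which 17 of 18 members reached 1 FPKM in both libraries, and PC9 is dark over most rows.

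In H1299 Mock the beta cluster was on nearly as a whole. PCDHB6 was highest at 10.9 FPKM, followed among beta genes by PCDHB5 (7.03), PCDHB8 (6.04) and PCDHB12 (6.01). The beta sum was 88.3 FPKM in H1299 Mock against 1.15 in PC9, 3.14 in H1792, 4.5 in A549, 10.3 in CL1-0 and 12 in CL1-5. PCDHB1 was the exception in the block, at 2 reads in each H1299 library, and it stayed at or under 2 reads in all 12. In gamma all 23 members were detected in H1299 Mock, and 6 reached 1 FPKM, against 0 to 2 in the other Mock lines. Gamma FPKM values are low relative to beta values, so this level is not the same for both clusters. PCDHGA3 alone made up 43.2% of the gamma sum in H1299 Mock with 9.99 FPKM. PCDHGA3 stood at 0 to 0.0413 FPKM in the other Mock lines.

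Single members carried much of the sum in the other lines. PCDHB5 gave 52.7% of the beta sum in CL1-0 Mock (5.43 FPKM) and 28.9% in CL1-5 Mock (3.45 FPKM). PCDHGC3 gave 65.2% of the gamma sum in H1792 Mock (5.25 FPKM) and 60.6% in PC9 Mock (1.82 FPKM). PCDHAC2 gave 78.4% of the alpha sum in PC9 Mock (0.693 FPKM), and PCDHA6 41.1% in H1792 Mock (0.705 FPKM). PCDHGC3 led the gamma sum in 4 of 6 Mock lines, PCDHAC2 the alpha sum in A549 and PC9, and PCDHAC1 that of CL1-0 and CL1-5.

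CL1-0 and its subline CL1-5 shared PCDHB5 as their top member but not all others. On the log2(FPKM + 0.1) scale, CL1-5 Mock was at least 2-fold higher than CL1-0 Mock in 6 of 41 tested members (14.6%), beside 16.9% of all genes, and at least 2-fold lower in 2 (4.88%), beside 12.7%. Both shares were below those of genes in general, and this difference was not tested. PCDHB6 was at 0.13 FPKM in CL1-0 and 1.79 in CL1-5, PCDHGC3 at 0.25 and 2.24, PCDHAC2 at 0 and 0.613, and PCDHGA7 at 0.537 and 2.09. PCDHA11 was lower in CL1-5, at 0.0822 against 0.317 FPKM, and so was PCDHGB4, at 0.0695 against 0.27. After DAC 5 of the 8 differences were still at least 2-fold, those of PCDHB6 (0.259 in CL1-0 and 1.13 FPKM in CL1-5), PCDHGC3 (0.112 and 1.58), PCDHAC2 (0.0107 and 0.639), PCDHGA7 (0.465 and 1.13) and PCDHGB4 (0.323 and 0.0775). The others were PCDHB11 (0.535 and 1.34 in Mock, 0.579 and 0.716 after DAC), PCDHB12 (0.404 and 0.971, then 0.227 and 0.499) and PCDHA11 (0.263 and 0.111 after DAC). With 1 library each, these differences have no replicate check.

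The comparison of DAC with Mock asks whether these genes differed after the drug over the lines. DNA methylation of their promoters was not examined here. The comparison was made in the pair CL1-0 and CL1-5 and in H1299, PC9 and A549, the 5 lines of the study's comparison, with limma on log2(FPKM + 0.1) and the cell line as a block. Of the 56 members 41 passed the filter of a mean FPKM of at least 0.1, 9 in alpha, 17 in beta and 15 in gamma, and 15 did not and have no test. No member passed the Benjamini-Hochberg threshold of 0.05 in limma, where 0.119% of the 22603 genes tested were higher (27 genes) and 0% were lower. Without adjustment, at p under 0.05, limma had 1 higher and 0 lower members, beside 12.5% of all genes, and limma voom on the recovered reads called 0 members, with 2 higher and 0 lower at an unadjusted p under 0.05. The median log2 fold change was -0.08 in alpha, 0.09 in beta and 0.21 in gamma, beside 0.07 over all genes tested. The direction of these medians depended on scaling, as quantile normalization gave -0.32, -0.16 and -0.07 and a common sum per library gave 0.01, 0.36 and 0.49. The median of all genes moved to -0.03 under the former and 0.19 under the latter. Without A549 the gamma median was 0.02, and without H1299 it was 0.51.

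PCDHGB5, a gamma B isoform, had the largest fitted change. Mock cells of A549 had 0.337 FPKM, those of H1299 0.108, those of PC9 0.00992, and CL1-0 and CL1-5 had 0.122 and 0.0304. After DAC the same order of lines gave 0.97, 0.281, 0.107, 0.125 and 0.127 FPKM. All 5 lines were higher after DAC, though the 2 ranges overlapped, and H1792 went from 0.0166 to 0.0601. The log2 fold change was 0.78 (SE 0.25, adjusted p = 0.315 in limma). PCDHGB4 (log2 fold change 0.57, SE 0.27) was the other tested member that was higher in each of the 5 lines, whereas 6.76% of all genes tested were. Among untested members PCDHGA9 and PCDHGB6 were also higher in each line, and 0 members were lower in each line, compared with 4.39% of genes.

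The other members with large or small fitted values had no common direction over the lines. PCDHGA2 went from 0.139 to 0.97 FPKM in A549 and from 1.61 to 0.799 in H1299, with a fitted log2 fold change of 0.58 (SE 0.42). PCDHGA11 had 0.46 (SE 0.27), and in beta PCDHB16 and PCDHB9 both had 0.38 (SE 0.23 and 0.28). The lowest values were those of PCDHB12 (-0.35, SE 0.28), PCDHA4 (-0.29, SE 0.24), PCDHB11 (-0.25, SE 0.29) and PCDHA13 (-0.24, SE 0.25). In gamma A and B the smallest were PCDHGA1 and PCDHGA7 (both -0.04), PCDHGB1 (0.18) and PCDHGB2 (0.21), and in alpha the largest after PCDHA6 (0.13) was PCDHA9 (0.04). Their adjusted p in limma lay between 0.49 and 0.969.

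The members with the highest mean level in each family were, apart from those above, PCDHA4 and PCDHA11 in alpha, PCDHB2 in beta, and PCDHGB1 and PCDHGB2 in gamma. PCDHA4 ranged from 0 in PC9 to 0.503 FPKM in A549 in Mock and from 0 to 0.662 after DAC, and PCDHA11 from 0.00766 to 0.637 and from 0 to 0.359. PCDHB2 ranged from 0.303 in H1792 to 5.19 in H1299 in Mock and from 0.242 to 3.42 after DAC. The Mock and DAC ranges overlapped for each of them, as they did for PCDHGB1 (0.0155 to 0.326 and 0.0453 to 0.629) and PCDHGB2 (0.0711 to 0.879 and 0.0567 to 0.463).

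**Figure D2:**
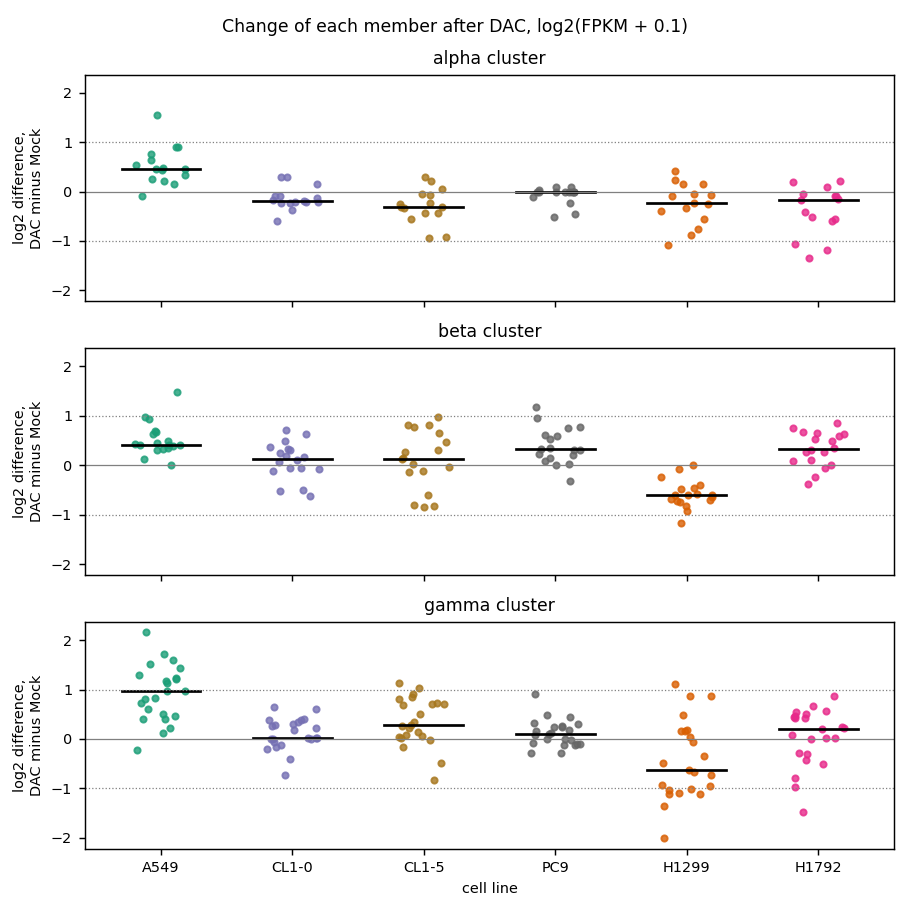
Difference of log2(FPKM + 0.1) between DAC and Mock for each member (points), by cell line, in the alpha, beta and gamma clusters. Black bars are medians over the members, dotted lines mark a 2-fold change, and the gamma median was 0.96 in A549 and -0.63 in H1299.

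The 5 lines went different ways, and in A549 most members were higher after DAC. There, 53 of 56 members were higher after DAC, 2 were lower and 1 was at 0 in both libraries. The share of all genes higher or lower at any size was not counted for a single line, here or below. The median log2 difference in A549 was 0.68 over the tested members and 0.07 over all genes tested. Of the 41 tested members 11 were at least 2-fold higher (26.8%), beside 15.5% of all genes, and 0 at least 2-fold lower, beside 6.69%. Of these 11, 9 were gamma genes. With a pseudocount of 1 the 11 became 0, and with 0.01 they became 20, so the count rests on low values. The share of all genes at other pseudocounts is not given, here or below, so these counts have no background. The reads of the gamma cluster, after size factors, were 2.96 times those in Mock (95% counting interval 2.6 to 3.38), those of alpha 1.68 times (1.5 to 1.87) and those of beta 1.67 times (1.47 to 1.9). Intervals and floors cover counting error only. In A549 marker sums also moved, and their part in the result was not tested. The epithelial sum went from 3590 to 2230 FPKM, with KRT7, KRT8 and KRT18 lower and EPCAM, CDH1 and KRT19 higher. The lung sum went from 17.9 to 7.53, mostly FOXA2 (17.3 and 7.05), and the fibroblast sum from 1.1 to 3.87, mostly COL1A1 (1.06 and 3.37). The leukocyte sum went from 4.23 to 7.52, mostly CD14 (4.23 and 7.38). Protocadherins and related cadherins outside the clusters summed to 16.9 and 35.7. Of these, FAT1 made up most (11.9 and 31.8), and PCDH9 was lower (3.38 and 1.45).

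The gamma members that were higher in A549 included low ones across the array. PCDHGA3 was at 0.0191 FPKM in Mock and 0.292 after DAC, PCDHGB3 at 0.00981 and 0.233, and PCDHGA5 at 0.0163 and 0.214. PCDHGA2, PCDHGA7 and PCDHGB4 went from 0.139, 0.163 and 0.149 to 0.97, 0.646 and 0.481. PCDHGC3 was already present in Mock, with 0.876 and 1.05 FPKM. Of 18 members undetected in A549 Mock, 16 passed 3 reads after DAC (88.9%), beside 35.6% of the genes undetected there. The levels reached stayed low, since 4 members were at 1 FPKM or more after DAC against 2 in Mock. In alpha, PCDHA6 went from 0.0347 to 0.294, PCDHAC1 from 0.403 to 0.843 and PCDHAC2 from 1.41 to 2.25 FPKM.

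H1299 went the other way. There 43 of 56 members were lower after DAC and 13 higher. The median log2 difference was -0.64 over the tested members and 0 over all genes tested. Of 41 tested members 8 were at least 2-fold lower (19.5%), beside 3.15% of all genes, and 1 was at least 2-fold higher (2.44%), beside 8.18%. With a pseudocount of 1 these numbers were 1 and 0. Some of the 8 passed the FPKM filter through their H1299 values, so that a fall there is in part built in. PCDHGA3, for example, was at 9.99 FPKM in H1299 Mock and at most 0.292 in the other lines. Over all 56 members, without the filter, 9 were at least 2-fold lower and 1 higher. Gamma reads were 0.489 times those in Mock (0.461 to 0.518), beta reads 0.639 times (0.618 to 0.66) and alpha reads 0.799 times (0.721 to 0.885). In beta 17 of 18 members were lower and PCDHB1 was not, yet all 17 stayed at 1 FPKM or more.

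Single values in H1299 show the size of the difference. PCDHGA3 went from 9.99 to 2.41 FPKM, PCDHB6 was at 10.9 and 6.59, and PCDHB11 at 5.04 and 2.2. PCDHGA6 went from 1.47 to 0.514 and PCDHGA1 from 1.47 to 0.621. Against this direction 8 gamma members were higher after DAC, among them PCDHGB4 (0.0557 and 0.236), PCDHGB5 (0.108 and 0.281), PCDHGB7 (0.0352 and 0.145) and PCDHGC3 (2.41 and 2.72). PCDHA9, on in H1299 alone, was at 1.02 and 1.15 FPKM. The mesenchymal marker sum also moved in H1299, from 500 to 272 FPKM, and the epithelial sum from 112 to 672, and their part in the result was not tested. VIM (481 and 255) made up most of the former, and KRT8 (37.8 and 367) with KRT18 (73.4 and 296) most of the latter.

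In PC9 alpha members stayed mostly undetected while low beta reads appeared. Of 42 undetected members 14 passed 3 reads after DAC (33.3%), beside 24.9% of undetected genes. Detected beta members went from 5 to 13 of 18 and alpha members stayed at 3 of 15. PCDHA2 to PCDHA6 were at 0 FPKM in PC9 Mock and at most 0.00714 after DAC. The beta reads were 1.48 times those in Mock (1.14 to 1.93), the gamma reads 1.05 times (0.908 to 1.21) and the alpha reads 0.662 times (0.496 to 0.881). In PC9 1 tested member, PCDHB9, was at least 2-fold higher (0.0436 and 0.225 FPKM), beside 10.2% of genes, and 0 were at least 2-fold lower, beside 3.1%.

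In CL1-0 and CL1-5 few members differed from Mock by 2-fold or more. In CL1-0 no tested member was at least 2-fold higher or lower, beside 7.6% and 2.14% of genes, and 28 members were higher and 27 lower. In CL1-5 2 were higher by that much and 0 lower, beside 7.25% and 5.05%. The alpha reads were 0.844 times Mock in CL1-0 (0.733 to 0.971) and 0.696 times in CL1-5 (0.61 to 0.793), with 12 of 15 members lower in each. The median log2 difference of tested alpha members was -0.21 in CL1-0 and -0.32 in CL1-5, beside 0.01 and 0 over all genes tested. PCDHB5, the leading member of both, was at 5.43 and 3.74 FPKM in CL1-0 and at 3.45 and 1.93 in CL1-5. PCDHGA7 was at 2.09 and 1.13 FPKM in CL1-5. Of the undetected members 4 of 8 in CL1-0 and 2 of 6 in CL1-5 passed 3 reads after DAC (50% and 33.3%, beside 22.3% and 19.5% of genes).

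H1792, which was not in the fit, had the lowest ratio of DAC to Mock for alpha. Alpha reads were 0.35 times those in Mock (0.27 to 0.449), with PCDHA6 at 0.705 and 0.256 FPKM, PCDHA11 at 0.192 and 0.0398 and PCDHAC2 at 0.357 and 0.0791. Beta reads were 1.29 times (1.1 to 1.51) and gamma reads 0.809 times (0.739 to 0.886). Of 41 members 3 were at least 2-fold lower (7.32%), all in alpha, beside 5.79% of genes, and 0 higher, beside 10.3%. Over all 56 members, without the filter set on the other lines, 4 were lower, 1 of them in gamma. That was PCDHGB3, at 0.229 and 0.0175 FPKM. Of 18 undetected members 8 passed 3 reads after DAC (44.4%, beside 21.2%), and 5 others were at 3 reads or fewer only after DAC. In H1299 the 1 undetected member stayed so (background 43.9%), by the floor on undivided reads.

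Summed over each cluster, no direction was shared by all 5 lines. The log2 ratio of summed FPKM averaged -0.2 ± 0.53 in alpha, 0.05 ± 0.58 in beta and 0.12 ± 0.91 in gamma (mean ± SD, n = 5 lines). Alpha was higher in 1 of 5 lines, beta in 2 and gamma in 3. With H1792 added, alpha was lower in 5 of 6 lines, and beta and gamma in 3 each. The mean was smaller than the SD between lines in each cluster.

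**Figure D3:**
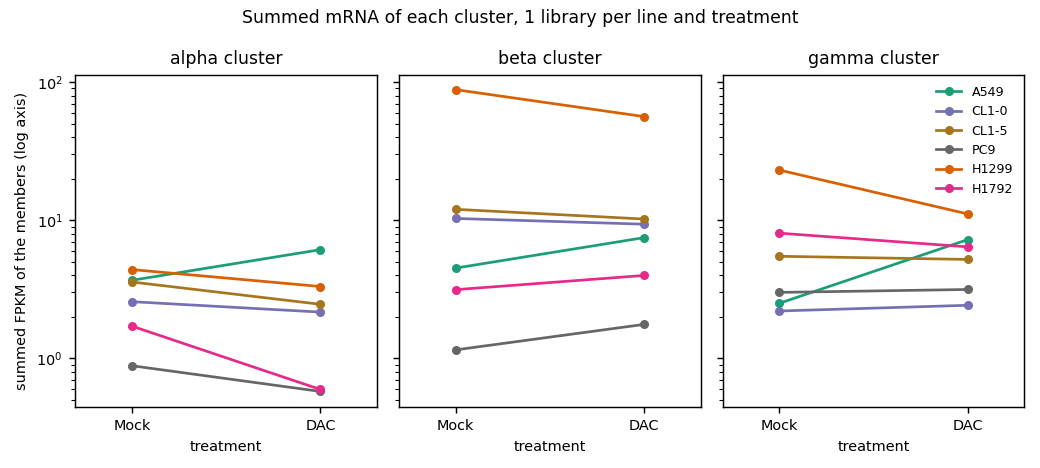
Summed FPKM of the alpha, beta and gamma members in Mock and DAC libraries (log axis), with 1 line per cell line and no error bars because each point is 1 library. The beta sum of H1299 (88.3 and 56.3) lies above all other lines, and A549 is higher after DAC in each panel, in gamma with 2.5 and 7.24.

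The C-type genes behaved differently from each other. PCDHGC3 was detected in all 12 libraries, in Mock at 0.25 FPKM in CL1-0, 0.876 in A549, 1.82 in PC9, 2.24 in CL1-5, 2.41 in H1299 and 5.25 in H1792. After DAC it was at 0.112, 1.05, 1.68, 1.58, 2.72 and 3.88 in the same order, and its log2 fold change was -0.18 (SE 0.2, adjusted p = 0.704 in limma). PCDHAC1 ranged from 0.0697 to 0.765 FPKM in Mock and from 0.018 to 0.843 after DAC (fitted log2 fold change -0.01, SE 0.27). PCDHAC2 ranged from 0 in CL1-0 to 1.41 in A549 in Mock, and from 0.0107 to 2.25 after DAC, with -0.11 (SE 0.26). PCDHGC4 and PCDHGC5 reached at most 0.038 and 0.119 FPKM in any library and had no test.

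A minority of the members' promoters lay in ATAC peaks in each library. A broad peak within 1000 bp of the gene start was listed for 23 of 56 members in A549 Mock (41.1%, beside 69.4% of protein-coding genes) and for 20 in A549 DAC (35.7%, beside 72.4%). H1299 had 11 in Mock (19.6%, beside 66.5%) and 13 after DAC (23.2%, beside 69%). The libraries labelled CL1-5 had 9 and 10 (beside 71% and 72%), and those labelled PC9 had 18 and 24 (beside 69.7% and 72.9%). In 17 members no library had a peak, and in 4 all 8 did: PCDHAC1, PCDHAC2, PCDHB2 and PCDHGC3. Peak lists show presence or absence of a call and were made separately for each library.

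The highest fold enrichment at a member promoter was that of PCDHAC1 in A549 Mock. The fold enrichment at PCDHAC1 was 6.7 to 10 over the 8 libraries, at PCDHGC3 5.77 to 9.08, and at PCDHAC2 4.4 to 7.86. PCDHB2 reached 3.07 to 6.49. PCDHGA7 reached 8.68 in A549 Mock and had no peak in H1299. An open promoter did not go with a high level in each case, since PCDHAC1 mRNA was at 0.156 FPKM in H1299 Mock with a peak of 7.93.

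Members with a promoter peak had the higher median mRNA in A549 and H1299. In H1299 Mock the 11 members with a peak had a median of 4.88 FPKM and the 45 without had 0.451, and after DAC the medians were 0.799 and 0.23. Within the H1299 beta cluster the medians lay close together, at 5.19 with and 4.92 without a peak in Mock and 3.21 and 3.03 after DAC. In gamma they were 6.2 (2 members) and 0.343 in Mock, and in alpha 0.494 and 0.13. In A549 Mock the medians were 0.203 with and 0.0347 without a peak, and after DAC 0.638 and 0.199. The PCDHGA3 peak (fold enrichment 4.81 in Mock and 4.9 after DAC) was found in H1299 only, the line in which the gene was on, and it was present although the mRNA went from 9.99 to 2.41 FPKM. In H1299 Mock 5 of 18 beta promoters had a peak although 17 of 18 beta genes were at 1 FPKM or more. PCDHGB5 had a peak in both A549 libraries (5.23 and 6.48) and in none of the other 6.

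Promoter peaks listed in Mock and DAC libraries were then compared. In A549 2 of 33 members without a peak in Mock had one after DAC (6.06%, beside 16% of genes), and 5 of 23 with a peak had none (21.7%, beside 2.74%). In H1299 4 of 45 gained one (8.89%, beside 12.8%) and 2 of 11 lost theirs (18.2%, beside 2.71%). The libraries labelled PC9 gained 7 of 38 (18.4%, beside 16.5%) and lost 1 of 18 (5.56%, beside 2.62%), and those labelled CL1-5 gained 4 of 47 (8.51%, beside 14.8%) and lost 3 of 9 (33.3%, beside 4.52%). DAC libraries had more peaks than Mock libraries in each pair (63541 against 45354 in H1299, 78199 against 58734 in A549), so gains are counted against a larger list. The peaks lost in A549 had fold enrichments of 2.91 to 4.23 in Mock, where PCDHAC1 had 10. Those lost in H1299 had 3.79 and 4.34, those under the label CL1-5 2.89 to 3.36, and that under PC9 4.88. Gained peaks had 4.23 and 4.43 in A549 and 3.04 to 4.92 in H1299. How far these differences reflect calls near the cutoff was not tested. In A549 the gamma promoters with a peak numbered 8 before and 8 after DAC, while 22 of 23 gamma members were higher in mRNA.

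Outside the promoters a few peaks recurred. Peaks between 140419360 and 140421003 on chromosome 5 (GRCh37), 27428 bp past the last alpha exon and before the first beta gene, were listed in all 8 libraries with fold enrichments of 3.48 to 10.1. Within the alpha introns, peaks between 140383546 and 140384266 were listed in 7 libraries (3.34 to 10.7). A peak at 140621084 to 140621602, 3361 bp before PCDHB15, was in all 8 (3.15 to 5.93). The peaks at 140699830 to 140700883 between beta and gamma, also in all 8 (4.55 to 8.36), lie at the start of TAF7, a general transcription factor subunit that is no member.

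Related genes and regulators gave few changes. Of 18 genes of CTCF, cohesin and DNA methylation, 18 were tested and 0 passed the threshold in either direction in limma, with 1 higher at an unadjusted p under 0.05, DNMT3B. This de novo methyltransferase was higher in all 5 lines and in H1792 (log2 fold change 0.98, SE 0.16, adjusted p = 0.11), for example 7.38 and 18.9 FPKM in A549. CTCF was present in every library at 8.26 to 20.9 FPKM. Of 18 protocadherins and related cadherins outside the clusters 9 were tested, and 0 passed in either direction (median log2 fold change -0.03). Of 20 genes flanking the clusters 17 were tested and 0 passed, 2 of them lower when p was taken without adjustment at 0.05 (median -0.08). The marker lists had 0 genes past the threshold, with medians of 0.68 for epithelial (6 tested), 0.04 for lung (3), 0.05 for mesenchymal (5), 0.09 for neuronal (8), 0.54 for leukocyte (2) and 0.96 for fibroblast genes (3).

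Among the non-member genes whose level was most like the summed members over the 12 libraries were PHF8 (Pearson r = 0.959), AFG3L1P (0.958), KDM5C (0.958) and BBS5 (0.948), of 22774 genes compared. The 12 libraries come from 6 lines with 2 each, and these 4 genes were highest in H1299. That line also stands apart in its read totals and its mostly even low read numbers. KDM5C, for example, was at 30.8 and 25.7 FPKM in the H1299 libraries and at most 17.5 in the others.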

How the data were processed

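Clustered protocadherin mRNA and promoter accessibility were taken from 12 mRNA-seq and 8 Omni-ATAC-seq libraries, grouped by the cell line and treatment in their labels. The authors sequenced stranded mRNA libraries, aligned reads to hg19 and counted them per gene on GENCODE, and deposited FPKM values from DESeq2 1.24.0, together with a mean normalized signal per gene. The aligner is RSEM with bowtie2 in the study's methods, while TopHat2 2.1.1 stands in the submitters' processing notes. The strand setting and the handling of reads that fall in several genes are not given in the sources used here. In the same table the authors deposited log2 fold changes with errors, a test score and p-values, which were not used. The authors aligned ATAC reads with BWA 0.7.17-r1188, called broad peaks per library with MACS2 2.2.5 at a cutoff of 0.1 and annotated them with ChIPseeker 1.20.0. The deposited lists give a score, a fold enrichment (a ratio to background) and −log10 p- and q-values.

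From the mean signal and the FPKM, whole reads were recovered in each library (100% of values within 0.01 of a whole number). Members were fitted with all genes of a mean FPKM of at least 0.1 in 10 libraries, as log2(FPKM + 0.1), with limma 3.58.1 in R 4.3.3, cell line as block, an intensity trend and Benjamini-Hochberg adjustment. Mock and DAC share a line, and their deviations correlated at 0.731 to 0.9 within a line and at most 0.115 between lines. This test was tested on simulated data. There a changed gene had the same fold change in every line, so lines that differ in direction were not covered. Per-line values have no test, and p-values measure the spread between lines. The pseudocount understates changes of low genes. Counting intervals are exact at 95%. Gene models and sequences came from GENCODE and the GRCh37 genome (the same build as hg19), and 0 peaks ended past a chromosome. Figures and summaries were made in Python 3.11.15. The number of value columns without a sample was 0. Text names all C-type genes and, per family, the 3 highest by mean FPKM and the 2 largest and 2 smallest fitted changes, the 5 most similar genes (1 of which is not reported here) and fixed lists. Further members were named after their values were seen, for their levels in a line. Members and lists were chosen with earlier results of these data known. Alternatives covered pseudocount, filter, scaling, block, trend, samples, floor, fold and peak window.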

Additional observations from a re-analysis of the deposited data

Results flagged for a closer look

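Of 87 values over the 6 lines (cluster sums, cluster medians and the levels of the named members), 29 had a highest or lowest line whose gap to the nearest other line was large for the range of the group. In 24 of them H1299 stood apart, in 4 A549 and in 1 CL1-5. The rule is passed in about 1 in 20 groups of normally distributed values, which FPKM values of different lines need not be. Some of these members were named for a high mean FPKM over the 12 libraries, which high H1299 values raise. The 29 are therefore not compared with that rate. The members are not independent of each other, since 1 line gives most of these values. Each group is 6 different cell lines with 1 library each, and the read numbers of H1299 were mostly even. The part of that in its levels was not tested.

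The beta sum of H1299 stood apart in both treatments, at 88.3 FPKM in Mock where the next line had 12, and at 56.3 after DAC where the next had 10.2. Its beta median log2 change, -0.61, lay below the nearest line at 0.13. Its gamma sum of 23.1 FPKM in Mock lay above 8.06.

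Among beta members H1299 was apart in Mock and after DAC for PCDHB6 (10.9 and 6.59 FPKM, with 1.79 and 1.13 in the next line), PCDHB2 (5.19 and 3.42, next 1.02 and 1.12) and PCDHB16 (1.56 and 1.48, next 0.119 and 0.314). It was also apart for PCDHB9 (5.47 and 3.95, next 0.374 and 0.485), PCDHB11 (5.04 and 2.2, next 1.34 and 0.716) and PCDHB12 (6.01 and 3.13, next 0.971 and 0.499).

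Outside beta, H1299 was apart in both treatments for PCDHA9 (1.02 and 1.15 FPKM, next 0.0631 and 0.0402), PCDHGA3 (9.99 and 2.41, next 0.0413 and 0.292) and PCDHGC5 (0.119 and 0.11, next 0.0323 and 0.0334). In Mock alone it was apart for PCDHGA2 (1.61, next 0.139) and PCDHGA1 (1.47, next 0.157).

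A549 was apart for PCDHGB5 in Mock and after DAC (0.337 and 0.97 FPKM, next 0.122 and 0.281), and after DAC for PCDHAC2 (2.25, next 0.639) and PCDHGB1 (0.629, next 0.159). CL1-5 Mock was apart for PCDHGA7 (2.09, next 0.537).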

How the results depend on the processing

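No clustered protocadherin passed the threshold in any of the 16 fits. Over the alternatives that tested it, PCDHGB5 had a log2 fold change of 0.21 to 1.45 and an adjusted p of 0.173 to 1 in limma, above 0 in all 14. These refits largely reuse the same libraries, in which PCDHGB5 was higher in each of the 5 lines, so the shared sign adds no support. Over all genes the 27 higher calls became 178 with limma voom on the recovered reads (with 1 lower), 10 with no cell line block, 0 with no filter, 6 with no trend, 0 with a pseudocount of 1, 41 with a common sum per library and 50 with H1792. Leaving out 1 line at a time gave 0 to 4. The cause of these shifts was not tested, and neither was that of the changes listed next.

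The fitted direction of single members, none of them past the threshold, turned often. With voom it was 0.01 for PCDHAC1, -0.21 for PCDHB6, -0.19 for PCDHB2 and -0.83 for PCDHGA3. A pseudocount of 1 gave 0.01 for PCDHAC1, -0.01 for PCDHA6, -0.12 for PCDHB6, -0.05 for PCDHB2 and -0.23 for PCDHGA3, and one of 0.01 gave 0.04 for PCDHAC2, 0.35 for PCDHB5 and 0.25 for PCDHGA7. A common sum gave 0.07 for PCDHAC1, 0.01 for PCDHAC2, 0.18 for PCDHB5, 0.12 for PCDHGA7 and 0.08 for PCDHGA1. Quantile normalization gave -0.19 for PCDHA6, -0.26 for PCDHA9, -0.12 for PCDHB6, -0.17 for PCDHB2, -0.07 for PCDHGA3, -0.08 for PCDHGB2 and -0.13 for PCDHGB1. With H1792 it was -0.09 for PCDHA6, 0.08 for PCDHB5, -0.02 for PCDHB2 and 0.04 for PCDHGA1. With 1 line left out the ranges were -0.23 to 0.13 for PCDHAC1, -0.29 to 0.08 for PCDHAC2, -0.22 to 0.39 for PCDHA6, -0.31 to 0.02 for PCDHA11, -0.01 to 0.1 for PCDHA9, -0.31 to 0.13 for PCDHB5 and -0.09 to 0.32 for PCDHB6. They were -0.18 to 0.17 for PCDHB2, -0.2 to 0.73 for PCDHGA3, -0.43 to 0.2 for PCDHGA7 and -0.23 to 0.23 for PCDHGA1.

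The median log2 fold change over 5 lines became -0.32 in alpha, -0.16 in beta and -0.07 in gamma with quantile normalization, 0.36 in beta and 0.49 in gamma with a common sum, and -0.19 in beta with voom. A pseudocount of 0.01 gave 0.36 in beta, 0.65 in gamma and 0.35 over all members. With 1 line left out the alpha median was -0.23 (without A549) to 0.01 (without H1299) and the gamma median 0.02 to 0.51. No alpha member had a mean FPKM of at least 1, so that filter gave no alpha value.

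The number of members at least 2-fold higher, with a pseudocount of 0.01, was 20 in A549, 14 in PC9, 12 in CL1-5, 9 in H1792, 4 in CL1-0 and 2 in H1299, and the number lower was 1 in CL1-0, 2 in CL1-5 and 7 in H1792. With a pseudocount of 1 there were 0 higher in A549, CL1-5, PC9 and H1299, 1 lower in H1299 and 0 lower in H1792. At 4-fold there were 1 higher in A549, 0 higher in CL1-5, PC9 and H1299, 1 lower in H1299 and 0 lower in H1792. For these counts the share of all genes at the same setting is not given. A common sum, likewise without that share, left 1 higher and 2 lower in CL1-5. By line, it moved the log2 difference between DAC and Mock by 0.35 in A549, 0.18 in CL1-0, 0.17 in PC9, 0.04 in H1299, -0.12 in CL1-5 and -0.17 in H1792.

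The log2 ratio of summed FPKM then became 1.09 in alpha, 1.08 in beta and 1.88 in gamma in A549, 0.04 in beta in CL1-0, -0.35 in beta in CL1-5 and -0.5 in gamma in H1792. With a pseudocount of 0.01 the median log2 fold change was 1.04 in alpha and 1.92 in gamma in A549, -0.84 in alpha and 0.72 in beta in H1792, and 1.44 in beta and 0.46 in gamma in PC9. With a pseudocount of 1 it was 0.19 in gamma in A549.

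At a floor of 10 reads 6 members were detected in PC9 Mock, 11 in PC9 DAC, 20 in H1792 Mock and 23 in H1792 DAC. At 0.1 FPKM there were 31 in both CL1-0 libraries, 29 in CL1-5 Mock, 8 and 10 in PC9 Mock and DAC, and 19 and 23 in H1792 Mock and DAC. A promoter window of 3000 bp to each side gave 34 members with a peak in A549 DAC, 18 in the Mock library labelled CL1-5, and 28 and 40 in the libraries labelled PC9. Peaks with a q-value under 0.01 left 5 in the Mock library labelled CL1-5. The share of all genes at these floors, windows and cutoffs is not given.

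Each line has 1 library per treatment, so values within a line have counting error alone. Most members had few reads, and those at 3 reads or fewer cannot be told from 0 at this depth. Shared constant exons and near-identical paralogues limit the assignment of reads to isoforms in alpha, gamma and beta. The cell line block is part of the reported comparison, and without it 0 members passed the threshold as well.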
